A study of Mus musculus with 12 samples.

Results

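The genes described here are 38 transcripts by which T lymphocytes and natural killer (NK) cells are recognised, followed through RNA sequencing of B220+ mouse splenocytes. B220 is a form of the surface phosphatase CD45 that marks B cells, so transcripts of T and NK cells in such a preparation are read as coming chiefly from other cells carried along with it. The members were found by their gene symbol, and all 38 were among the 24421 gene symbols counted. Of these, 37 passed the filter on low counts and entered the tests, as did 12878 of all genes. Trat1 did not pass.

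The 12 libraries came from 12 mice aged 4 to 5 weeks, 3 for each of 4 genotypes. The groups are named here WT (genotype Max WT, no transgene), Max KO (conditional knockout of Max, no transgene), EuMyc (the EuMyc transgene with genotype Max WT) and EuMyc Max KO (the transgene together with the conditional knockout). EuMyc places Myc under an immunoglobulin heavy chain enhancer, so the transgene acts in B lineage cells, and the series title describes these cells as premalignant. MAX is the partner that MYC needs to bind DNA. The promoter or Cre driver of the knockout, the mouse strain, the method of the B220+ isolation and its purity were not given in the sources used here, so whether T and NK cells carried the deletion is not known.

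A T cell recognises antigen through a receptor whose chains are held at the surface by the CD3 and zeta chains. When the receptor is engaged the kinase LCK phosphorylates these chains, ZAP70 docks on them and the adaptor LAT passes the signal on. CD4 or CD8 binds the MHC molecule beside the receptor. NK cells carry no such receptor. They balance activating and inhibitory receptors of the NKG2 and NKR-P1 families and kill by releasing perforin and granzymes, a programme they share with cytotoxic T cells. In the spleen both populations lie next to B cells, and a small number of them usually stays in a B cell preparation.

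Each library held 14973332 to 21671601 reads assigned to genes. Levels are in CPM, the read count of a gene scaled to a common library size, and a log2 fold change is given with its standard error (SE). A count of 3 reads corresponds to 0.145 to 0.192 CPM, depending on the library. A gene is said to have risen or fallen where edgeR's quasi-likelihood test, adjusted over all 12878 genes by Benjamini-Hochberg, gave an adjusted p under 0.05. Max, the targeted gene, lay at 108 to 139 CPM in the WT mice, 99.8 to 102 in the Max KO mice, 126 to 130.0 in the EuMyc mice and 102 to 108 in the EuMyc Max KO mice. Its log2 fold change was -0.23 for Max KO against WT (edgeR adjusted p = 0.0623) and -0.29 for EuMyc Max KO against EuMyc (edgeR adjusted p = 0.00462). Reads per gene do not separate a deleted exon from the rest of Max, so these levels do not measure the deletion. Myc lay at 975 to 1049 CPM in the EuMyc mice and 487 to 565 in the EuMyc Max KO mice (log2 fold change -0.95, edgeR adjusted p = 2.5e-07), against 96.0 to 136 in the mice with no transgene, so the transgenic groups also differed in Myc. B cell markers were abundant in every group. The summed level of 15 B cell markers was 14199 to 15522 CPM in WT mice, 12418 to 13654 in Max KO mice, 8030.4 to 9079.7 in EuMyc mice and 10189 to 12161 in EuMyc Max KO mice. None of the 15 was at 0 in any library.

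For 27 of the 38 members RefSeq on GRCm38.p6 (the mm10 assembly) gave at least 1 start site, 35 in all. The 250 bases before each start were searched on both strands for CACGTG, the E-box letters to which MYC and MAX dimers bind, and for core letters of 3 families of factors that act in T cells. These were TGTGGT for the RUNX family, CTTTGA for TCF1 and LEF1, and AGATAA for the family of Gata3. No pair of these motifs shared letters in the windows. The windows of 5 genes are shown because they carry the contrasts of the results. Cd3e and Bcl11b had the largest drops with the transgene. Lck is an abundant member, Ubash3a is the member that rose with the transgene, and Lat is the gene whose window was the only window of a member with CACGTG. Motif letters are in capitals.
Cd3e (RefSeq, GRCm38.p6, chr9:45009612-45009861, minus strand): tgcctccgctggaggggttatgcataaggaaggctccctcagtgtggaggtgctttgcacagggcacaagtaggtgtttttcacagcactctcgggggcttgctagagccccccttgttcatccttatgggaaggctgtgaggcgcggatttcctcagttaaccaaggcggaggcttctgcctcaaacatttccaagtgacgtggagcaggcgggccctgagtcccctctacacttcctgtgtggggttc
Bcl11b (RefSeq, GRCm38.p6, chr12:108003415-108003664, minus strand): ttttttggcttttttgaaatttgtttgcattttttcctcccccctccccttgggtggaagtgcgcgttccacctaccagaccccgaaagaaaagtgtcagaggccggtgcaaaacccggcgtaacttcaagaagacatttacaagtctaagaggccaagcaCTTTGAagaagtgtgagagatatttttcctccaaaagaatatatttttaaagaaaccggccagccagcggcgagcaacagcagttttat
Lck (RefSeq, GRCm38.p6, chr4:129573642-129573891, minus strand): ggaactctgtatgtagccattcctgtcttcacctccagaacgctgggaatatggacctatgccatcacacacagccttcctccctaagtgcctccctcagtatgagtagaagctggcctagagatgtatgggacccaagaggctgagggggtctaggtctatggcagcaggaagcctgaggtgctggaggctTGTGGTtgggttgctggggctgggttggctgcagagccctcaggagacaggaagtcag
Ubash3a (RefSeq, GRCm38.p6, chr17:31207816-31208065, plus strand): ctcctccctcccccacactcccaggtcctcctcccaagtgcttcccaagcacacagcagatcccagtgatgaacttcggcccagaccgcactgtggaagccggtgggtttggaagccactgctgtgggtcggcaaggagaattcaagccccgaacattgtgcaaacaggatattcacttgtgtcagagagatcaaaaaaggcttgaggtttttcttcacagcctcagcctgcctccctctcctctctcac
Lat (RefSeq, GRCm38.p6, chr7:126369569-126369818, minus strand): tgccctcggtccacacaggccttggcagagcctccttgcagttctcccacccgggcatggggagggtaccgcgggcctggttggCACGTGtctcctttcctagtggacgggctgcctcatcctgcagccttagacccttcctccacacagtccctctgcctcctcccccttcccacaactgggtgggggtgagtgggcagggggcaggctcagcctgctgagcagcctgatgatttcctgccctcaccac
CACGTG was present in 1 of the 35 windows of members, starting 166 bases before the start of Lat, and in 6.02% of all 32851 windows of this length. TGTGGT was in 12 of the 35 windows, over 11 members, against 14.0% of all windows. It lay 58 bases before the upstream start of Lck, and it was in the windows of the cytotoxic genes Nkg7, Prf1, Gzma and Gzmb. CTTTGA was in 5 windows of members and 13.8% of all windows, and Bcl11b had it 89 bases before its start. AGATAA was in 3 windows of members and 9.99% of all. The shown windows of Cd3e and Ubash3a held none of the 4 motifs. These are matches of letters, not measured binding.

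Nearly all T and NK markers fell with the transgene when Max was intact, and nearly all were higher again in EuMyc Max KO. Of 37 tested members, 34 fell and 1, Ubash3a, rose in EuMyc against WT, where 71.6% of all tested genes were called, 34.9% lower and 36.7% higher. In 35 members all EuMyc mice lay below all WT mice and in 1 above, which held for 37.6% and 39.7% of all tested genes. The median log2 fold change of the members was -2.74, and that of all tested genes was 0.01. Without EuMyc replicate 3 the members' median was -3.39. In EuMyc Max KO against EuMyc 36 of 37 rose and 0 fell, where 73.7% of all tested genes were called, 37.6% higher and 36.1% lower, with medians of 3.17 for the members and 0.03 for all genes. In bulk RNA a smaller number of T and NK cells and less RNA per such cell cannot be told apart, nor can either be separated from more RNA in the B cells beside them. Both comparisons contain the same EuMyc libraries, so they are not independent of each other.

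**Figure D1:**
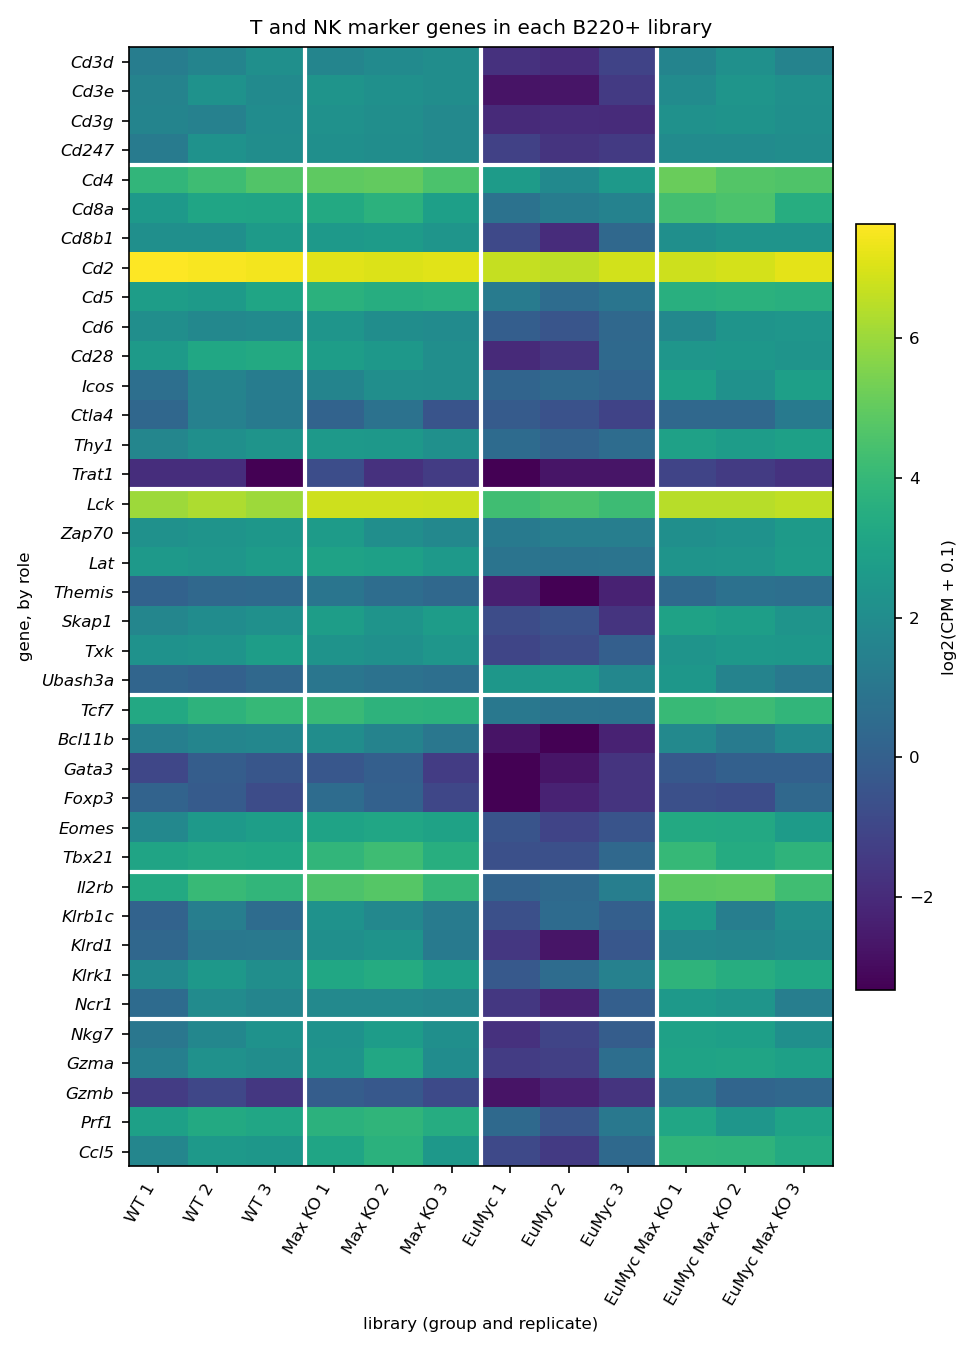
Level of the 38 genes (rows, grouped by role, white lines between roles) in the 12 libraries (columns), as log2(CPM + 0.1). The 3 EuMyc columns are darker than the rest for nearly all genes, while Cd2 and Lck are bright throughout and Ubash3a is brighter with the transgene than in WT.

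A sum was taken per mouse over 7 defining T cell markers (Cd3d, Cd3e, Cd3g, Cd8b1, Trat1, Themis and Bcl11b), chosen with earlier results of these data known. It was 16.3, 19.0 and 22.3 CPM in WT mice, 24.7, 23.1 and 20.2 in Max KO mice, 0.967, 0.585 and 2.25 in EuMyc mice and 20.7, 23.6 and 21.8 in EuMyc Max KO mice. The 3 EuMyc libraries lay far below the other 9, and the other 3 groups overlapped or lay close together. The means were 19.2 ± 3.03 CPM (SD, n = 3) in WT mice, 22.7 ± 2.28 in Max KO mice, 1.27 ± 0.870 in EuMyc mice and 22.0 ± 1.46 in EuMyc Max KO mice. WT was 15.2-fold and EuMyc Max KO 17.4-fold above EuMyc. These folds depend on the genes summed. Over the 36 members other than Cd2 and Lck, WT was 4.73-fold and EuMyc Max KO 7.16-fold above EuMyc. EuMyc replicate 3 carried more of the 7 T cell transcripts than the other 2 EuMyc mice. Without it the EuMyc mean was 0.776 CPM. The sum over 5 defining NK cell markers (Klrb1c, Klrd1, Ncr1, Eomes and Gzma) was 9.34, 18.6 and 17.5 CPM in WT mice, 25.5, 30.1 and 19.3 in Max KO mice, 1.93, 2.18 and 4.54 in EuMyc mice and 33.7, 29.1 and 24.1 in EuMyc Max KO mice. Memory and cytotoxic T cells also make Eomes and Gzma, so this sum does not stand for NK cells alone. Here too the EuMyc mice were the lowest, at 2.89 ± 1.44 CPM against 15.1 ± 5.04 in WT mice, 25.0 ± 5.45 in Max KO mice and 28.9 ± 4.82 in EuMyc Max KO mice (SD, n = 3). Every Max KO mouse and every EuMyc Max KO mouse lay above every WT mouse. WT was 5.24-fold and EuMyc Max KO 10.03-fold above EuMyc.

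**Figure D2:**
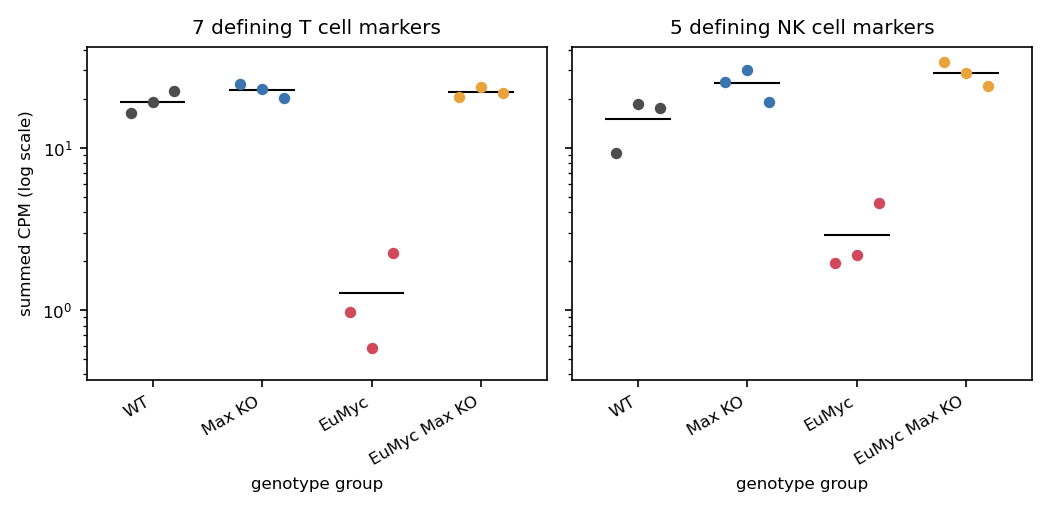
Summed CPM (log scale) of 7 defining T cell and 5 defining NK cell markers, with each point a mouse and each line the mean of 3 mice. EuMyc mice lie between 0.585 and 2.25 CPM for T cell markers and between 1.93 and 4.54 for NK cell markers, below all other mice.

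Reads of the NK markers divided by reads of the T markers were 0.574, 0.976 and 0.781 in WT mice, 1.03, 1.30 and 0.952 in Max KO mice, 2, 3.73 and 2.02 in EuMyc mice and 1.63, 1.23 and 1.10 in EuMyc Max KO mice. All 3 EuMyc libraries lay above the other 9, and all 3 EuMyc Max KO libraries lay above all 3 WT libraries. The EuMyc ratios rest on 11 to 43 reads of T cell markers, with exact 95% intervals of 1.14 to 3.61, 1.88 to 8.04 and 1.39 to 2.99 that cover counting error only. The differences between groups in these ratios were not tested.

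The receptor complex came down as a block. All 4 chains fell in EuMyc and all 4 rose in EuMyc Max KO against EuMyc. Cd3d, the delta chain, was at 2.41, 2.96 and 4.23 CPM in WT mice, 3.11, 3.64 and 4.06 in Max KO mice, 0.193, 0.159 and 0.366 in EuMyc mice and 2.98, 4.44 and 2.86 in EuMyc Max KO mice. Cd3e (chromosome 9, 44998740 to 45009627, minus strand), the epsilon chain present in every receptor complex, was at 2.87, 4.66 and 3.63 CPM in WT mice, 4.97, 4.47 and 4.06 in Max KO mice, 0.0484, 0.0532 and 0.261 in EuMyc mice and 3.84, 5.10 and 4.37 in EuMyc Max KO mice. The EuMyc values of Cd3e stand for 1, 1 and 5 reads, and no EuMyc mouse came near a mouse of another group. Its log2 fold change was -4.88 (SE 0.425, edgeR adjusted p = 3.1e-07) in EuMyc against WT and 5.13 (SE 0.421, edgeR adjusted p = 1.94e-07) in EuMyc Max KO against EuMyc. Without EuMyc replicate 3, which held 5 of the 7 reads, these were -6.02 and 6.27 for Cd3e. Cd3g, the gamma chain, was at 2.98, 2.67 and 3.87 CPM in WT mice, 4.52, 4.22 and 3.49 in Max KO mice, 0.145, 0.159 and 0.157 in EuMyc mice and 4.49, 4.88 and 4.31 in EuMyc Max KO mice. Cd247, which encodes the zeta chain that T and NK cells share, was at 2.23, 4.72 and 4.05 CPM in WT mice, 4.24, 4.03 and 3.49 in Max KO mice, 0.338, 0.213 and 0.261 in EuMyc mice and 3.84, 3.84 and 4.00 in EuMyc Max KO mice. In both genes the EuMyc libraries were the only low ones, with 9 reads of Cd3g over the 3 EuMyc mice. The exons of Cd247 overlap those of Pou2f1 on the opposite strand, so its counts are less certain than those of the other chains. The 4 chains did not pass the test in Max KO against WT (edgeR adjusted p 0.261 to 0.842) or in EuMyc Max KO against Max KO (edgeR adjusted p 0.624 to 0.988).

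Among coreceptors, adhesion and costimulatory receptors, all 10 tested members fell in EuMyc and all 10 rose in EuMyc Max KO against EuMyc, by unequal amounts. Cd8b1, the beta chain of CD8 that conventional cytotoxic T cells carry, was at 4.30, 4.32 and 6.08 CPM in WT mice, 5.76, 6.26 and 5.20 in Max KO mice, 0.435, 0.159 and 1.20 in EuMyc mice and 4.27, 5.04 and 4.94 in EuMyc Max KO mice. Cd8a, the alpha chain, which some dendritic cells also make, was at 5.85, 8.70 and 8.40 CPM in WT mice, 9.94, 13.2 and 7.09 in Max KO mice, 1.64, 2.34 and 2.82 in EuMyc mice and 20.5, 23.1 and 11.2 in EuMyc Max KO mice. Cd8a was higher in EuMyc Max KO replicates 1 and 2 than in any other library, whereas the Cd8b1 levels of those mice were close to those of WT mice. Reads of Cd8a divided by reads of Cd8b1 were 1.36, 2.01 and 1.38 in WT mice, 1.73, 2.11 and 1.36 in Max KO mice, 3.78, 14.7 and 2.35 in EuMyc mice and 4.80, 4.59 and 2.26 in EuMyc Max KO mice. The EuMyc ratios rest on 9, 3 and 23 reads of Cd8b1. Each EuMyc Max KO mouse exceeded each WT and Max KO mouse in this ratio. For replicate 3 the exact 95% interval, for counting error only, was 1.77 to 2.91, which overlaps the 1.65 to 2.71 of Max KO replicate 2. The intervals of EuMyc Max KO replicates 1 and 2 began at 3.76 and 3.65. Differences between groups in this ratio were not tested. The log2 fold change of Cd8a in EuMyc Max KO against Max KO was 0.86 (SE 0.296), with an edgeR adjusted p = 0.0756 that missed the threshold, although DESeq2 called it.

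Cd4, the coreceptor of helper T cells, which dendritic cells and macrophages also transcribe, was at 14.8, 18.9 and 24.8 CPM in WT mice, 30.3, 32.3 and 23.3 in Max KO mice, 6.33, 3.61 and 5.90 in EuMyc mice and 34.5, 26.0 and 24.5 in EuMyc Max KO mice. It remained at 6.33, 3.61 and 5.90 CPM in the EuMyc mice, and its fitted fold change from WT down to EuMyc was 3.68-fold. For Cd3e the ratio of pooled WT to EuMyc reads after scaling was 31.2, with an exact 95% interval of 14.9 to 78.6 that covers counting error only. Cd28, the main costimulatory receptor of naive T cells, was at 6.07, 9.15 and 9.95 CPM in WT mice, 6.72, 5.56 and 4.17 in Max KO mice, 0.145, 0.213 and 1.25 in EuMyc mice and 5.36, 5.54 and 4.99 in EuMyc Max KO mice, with EuMyc replicate 3 above the other 2 EuMyc mice. Icos, a costimulatory receptor of activated T cells, was at 1.49, 2.90 and 2.32 CPM in WT mice, 2.99, 4.22 and 4.00 in Max KO mice, 1.06, 1.22 and 1.04 in EuMyc mice and 7.36, 4.60 and 7.12 in EuMyc Max KO mice. It fell by 1.01 on the log2 scale in EuMyc and rose by 2.51 in EuMyc Max KO against EuMyc. Ctla4, an inhibitory receptor of regulatory and activated T cells, was at 1.15, 2.73 and 2.14 CPM in WT mice, 1.02, 1.66 and 0.629 in Max KO mice, 0.774, 0.585 and 0.366 in EuMyc mice and 1.19, 1.21 and 2.18 in EuMyc Max KO mice. Its low levels overlapped between EuMyc and Max KO. Its rise in EuMyc Max KO against EuMyc (1.40, edgeR adjusted p = 0.0166) was lost without EuMyc replicate 3 or EuMyc Max KO replicate 3, with an edgeR adjusted p of up to 0.0755.

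Cd5 and Cd6 are paired scavenger receptors that dampen receptor signalling, and B-1 cells also carry CD5. Cd5 was at 6.70, 6.25 and 8.64 CPM in WT mice, 12.6, 11.2 and 11.8 in Max KO mice, 2.27, 1.38 and 1.83 in EuMyc mice and 11.8, 12.8 and 11.9 in EuMyc Max KO mice. All 3 Max KO mice stood above all 3 WT mice, and Cd5 rose in Max KO against WT by 0.72 (SE 0.170, edgeR adjusted p = 0.0155). Leaving out WT replicate 1, WT replicate 2 or Max KO replicate 1 ended the call, with an edgeR adjusted p of up to 0.0669. Cd6 was at 4.13, 3.35 and 3.63 CPM in WT mice, 5.08, 4.03 and 3.77 in Max KO mice, 0.870, 0.638 and 1.20 in EuMyc mice and 3.35, 4.99 and 5.35 in EuMyc Max KO mice, with no such step between WT and Max KO (0.21, SE 0.249, edgeR adjusted p = 0.611). Thy1, a surface glycoprotein of all mouse T cells, was at 3.15, 4.26 and 5.00 CPM in WT mice, 6.04, 5.69 and 4.40 in Max KO mice, 1.31, 1.01 and 1.36 in EuMyc mice and 7.68, 6.52 and 7.49 in EuMyc Max KO mice. It fell in EuMyc by 1.75 on the log2 scale. Trat1, an adaptor of the T cell receptor, was at 0.172, 0.171 and 0 CPM in WT mice, 0.508, 0.192 and 0.286 in Max KO mice, 0, 0.0532 and 0.0522 in EuMyc mice and 0.379, 0.274 and 0.208 in EuMyc Max KO mice. These levels stand for 0 to 9 reads per library, below the filter, and in a fit with no filter Trat1 was called higher in EuMyc Max KO against EuMyc.

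Cd2, an adhesion molecule of T cells that mouse B cells also make, was by far the most abundant member. It was at 198, 185 and 172 CPM in WT mice, 143, 133 and 139 in Max KO mice, 101, 93.0 and 116 in EuMyc mice and 110.4, 120.3 and 147 in EuMyc Max KO mice. Per kilobase of exon, the mean level of Cd2 in WT was 106 CPM, followed by Lck at 23.8 and Ccl5 at 5.03, while Cd3e was at 0.912. WT mice were the highest and EuMyc mice the lowest for Cd2 apart from an overlap between EuMyc and EuMyc Max KO. It fell in Max KO against WT by 0.42 on the log2 scale (SE 0.104, edgeR adjusted p = 0.02). In EuMyc against WT it fell by 0.84 (SE 0.105, edgeR adjusted p = 1.17e-05), and it rose in EuMyc Max KO against EuMyc by 0.28 (SE 0.105, edgeR adjusted p = 0.0267). The first of these calls ended when WT replicate 1, WT replicate 2, Max KO replicate 1 or Max KO replicate 2 was left out (edgeR adjusted p up to 0.0905). The last ended without EuMyc replicate 1, EuMyc replicate 2 or EuMyc Max KO replicate 3 and in a fit on only those groups (edgeR adjusted p up to 0.127).

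Of the 7 proximal signalling genes, 6 fell in EuMyc and rose in EuMyc Max KO against EuMyc, and Ubash3a went its own way. Lck (chromosome 4, 129548344 to 129573641, minus strand), the kinase that starts receptor signalling and is also found in B-1 cells, was at 66.1, 78.3 and 64.8 CPM in WT mice, 110.2, 110.2 and 106 in Max KO mice, 19.3, 22.5 and 18.2 in EuMyc mice and 88.1, 88.7 and 96.7 in EuMyc Max KO mice. The 4 groups did not overlap for Lck: Max KO was highest, then EuMyc Max KO, WT and EuMyc. It rose in Max KO against WT by 0.64 (SE 0.0863, edgeR adjusted p = 0.000665), the only member called in that comparison under every alternative and without any single library. For EuMyc Max KO against Max KO its log2 fold change was -0.26 (SE 0.0856, edgeR adjusted p = 0.0654). Reads of Lck divided by reads of Cd3e were 23.1, 16.8 and 17.8 in WT mice, 22.2, 24.6 and 26.2 in Max KO mice, 399, 423 and 69.8 in EuMyc mice and 22.9, 17.4 and 22.2 in EuMyc Max KO mice. The ratio was highest in the 3 EuMyc libraries, of which replicates 1 and 2 had 1 Cd3e read each.

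Zap70, the kinase that docks on the CD3 chains and is also made in early B cells, was at 4.53, 5.06 and 5.42 CPM in WT mice, 6.27, 4.22 and 3.37 in Max KO mice, 2.18, 2.45 and 2.51 in EuMyc mice and 4.27, 4.71 and 6.24 in EuMyc Max KO mice. Lat, the membrane adaptor downstream of ZAP70, which pre-B cells make as well, was at 5.79, 5.34 and 6.43 CPM in WT mice, 7.91, 7.29 and 5.77 in Max KO mice, 1.74, 1.70 and 1.78 in EuMyc mice and 4.92, 5.10 and 6.39 in EuMyc Max KO mice. Both fell less than the CD3 chains, by 1.07 and 1.75 on the log2 scale in EuMyc, and EuMyc mice still lay below all WT mice. Themis, a regulator of receptor signalling during thymocyte selection, was at 0.974, 1.19 and 1.25 CPM in WT mice, 1.81, 1.41 and 1.20 in Max KO mice, 0.0967, 0 and 0.104 in EuMyc mice and 1.24, 1.59 and 1.51 in EuMyc Max KO mice, where 0 marks a library with no read of the gene. Skap1, an adaptor that links the receptor to integrins, was at 3.15, 3.86 and 4.41 CPM in WT mice, 6.83, 5.05 and 6.57 in Max KO mice, 0.484, 0.585 and 0.209 in EuMyc mice and 7.95, 6.96 and 5.04 in EuMyc Max KO mice. Txk, a TEC family kinase of T cells, was at 4.70, 4.94 and 6.79 CPM in WT mice, 4.80, 4.47 and 5.26 in Max KO mice, 0.387, 0.478 and 0.888 in EuMyc mice and 4.92, 5.59 and 5.41 in EuMyc Max KO mice. Skap1 and Txk fell by 3.14 and 3.22 on the log2 scale in EuMyc.

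Ubash3a (chromosome 17, 31207873 to 31246892, plus strand) encodes a phosphatase-like protein that restrains T cell receptor signalling. It was at 1.09, 0.966 and 1.19 CPM in WT mice, 1.86, 1.66 and 1.49 in Max KO mice, 5.51, 5.63 and 3.24 in EuMyc mice and 5.52, 2.91 and 2.08 in EuMyc Max KO mice. All 3 EuMyc mice lay above all WT and all Max KO mice, and so did all 3 EuMyc Max KO mice, with replicate 1 as high as the EuMyc mice. It rose in EuMyc against WT by 2.14 (SE 0.363, edgeR adjusted p = 0.000147). The change in EuMyc Max KO against EuMyc was -0.45 (edgeR adjusted p = 0.224), and against Max KO it was 1.06 (edgeR adjusted p = 0.0623). Without EuMyc Max KO replicate 1 it was called lower in EuMyc Max KO against EuMyc. In the same libraries genes of pro-B and pre-B cells, Rag1 and Myb among them, moved with the transgene. In EuMyc against WT 11 of 13 tested were higher and 1 lower, where 36.7% of all tested genes were called higher and 34.9% lower. The summed level of the 14 listed was 137 to 176 CPM in WT mice, 149 to 168 in Max KO mice, 1155 to 1216 in EuMyc mice and 198 to 260.4 in EuMyc Max KO mice. Their part in the level of Ubash3a was not tested.

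**Figure D3:**
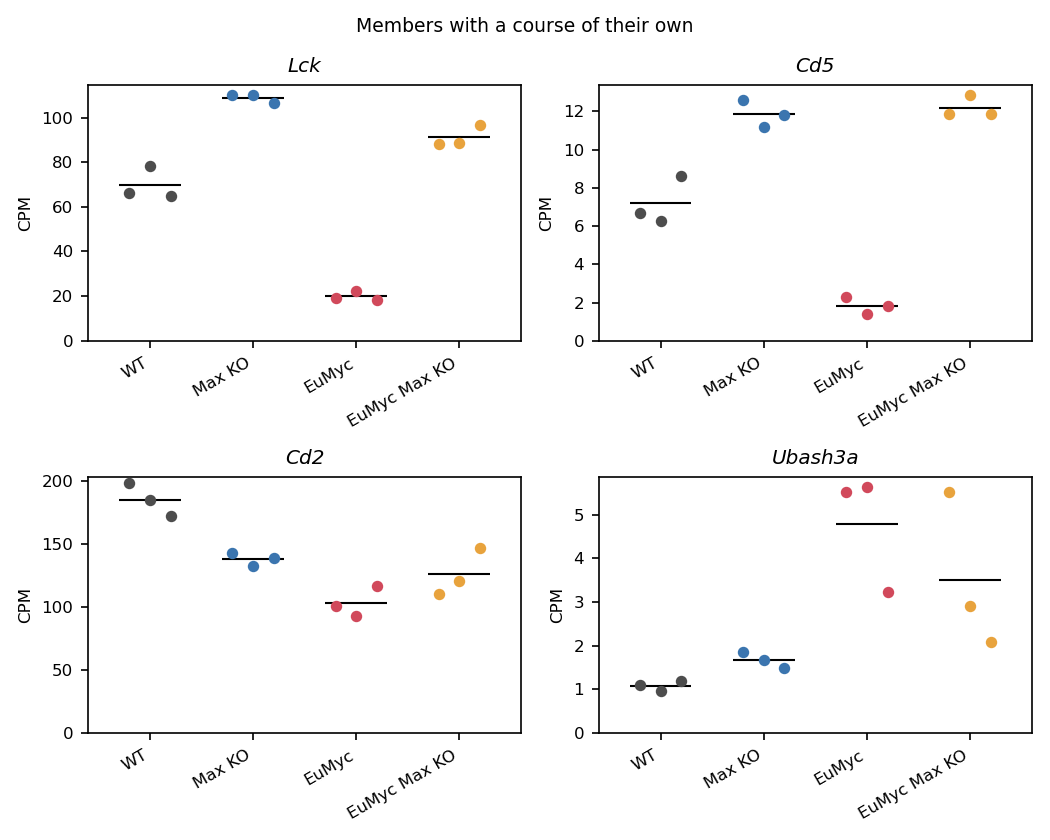
CPM of Lck, Cd5, Cd2 and Ubash3a by genotype group (points: mice, lines: means of 3 mice, axes from 0). Lck and Cd5 are highest in the Max KO and EuMyc Max KO mice and lowest in EuMyc, Cd2 is highest in WT, and Ubash3a is higher in the transgenic groups than in WT and Max KO.

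All 6 transcription factors of T and NK cells fell in EuMyc and rose in EuMyc Max KO against EuMyc. Tcf7, which encodes TCF1 of naive T cells, was at 9.68, 13.5 and 16.1 CPM in WT mice, 17.3, 13.4 and 13.1 in Max KO mice, 1.98, 1.75 and 1.72 in EuMyc mice and 16.5, 18.0 and 14.6 in EuMyc Max KO mice. Bcl11b (chromosome 12, 107910403 to 108003602, minus strand), which commits thymocytes to the T lineage, was at 2.58, 3.07 and 3.28 CPM in WT mice, 4.07, 2.88 and 1.94 in Max KO mice, 0.0484, 0 and 0.104 in EuMyc mice and 3.46, 2.25 and 3.64 in EuMyc Max KO mice. In EuMyc it had 3 reads over the 3 mice, against 154 in WT and 175 in EuMyc Max KO. The ratio of pooled reads after scaling was 58.1 for WT over EuMyc, with an exact 95% interval of 19.5 to 285 for counting error only. For EuMyc Max KO over EuMyc it was 61.1, with an interval of 20.6 to 299. The fitted log2 fold changes of Bcl11b, -5.68 and 5.75, depend on the prior count of the fit and were -6.53 and 6.60 without EuMyc replicate 3.

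Gata3, the factor of helper type 2 cells, was at 0.401, 0.853 and 0.655 CPM in WT mice, 0.678, 0.895 and 0.286 in Max KO mice, 0, 0.0532 and 0.209 in EuMyc mice and 0.703, 0.932 and 0.936 in EuMyc Max KO mice. Foxp3, which defines regulatory T cells, was at 1.03, 0.796 and 0.477 CPM in WT mice, 1.36, 0.959 and 0.400 in Max KO mice, 0, 0.106 and 0.209 in EuMyc mice and 0.541, 0.493 and 1.20 in EuMyc Max KO mice. The EuMyc levels of these 2 genes rest on 5 and 6 reads over the 3 mice, below every WT mouse, and the exons of Foxp3 overlap those of Ccdc22 and Ppp1r3f on the opposite strand. Eomes, a T-box factor of NK and memory T cells, was at 3.32, 5.80 and 6.97 CPM in WT mice, 8.19, 8.95 and 7.89 in Max KO mice, 0.629, 0.372 and 0.627 in EuMyc mice and 9.85, 9.81 and 6.34 in EuMyc Max KO mice. Tbx21, which encodes T-bet of NK cells, helper type 1 cells and some activated B cells, was at 8.25, 9.55 and 9.17 CPM in WT mice, 14.8, 18.8 and 11.6 in Max KO mice, 0.532, 0.532 and 1.20 in EuMyc mice and 16.2, 10.7 and 13.9 in EuMyc Max KO mice. All 3 Max KO mice exceeded all 3 WT mice for both T-box factors, with log2 fold changes of 0.64 (edgeR adjusted p = 0.118) and 0.74 (edgeR adjusted p = 0.0515) that missed the threshold. Tbx21 passed it with upper-quartile factors, library totals, no filter, DESeq2 or a fit on WT and Max KO alone, and without Max KO replicate 3.

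NK and cytokine receptors fell with the transgene in 4 of 5 cases, and all 5 rose in EuMyc Max KO against EuMyc. Il2rb, the beta chain through which NK and memory T cells receive interleukin 15, was at 10.03, 16.7 and 14.8 CPM in WT mice, 23.9, 26.9 and 15.8 in Max KO mice, 1.02, 1.22 and 2.46 in EuMyc mice and 29.0, 29.8 and 19.5 in EuMyc Max KO mice. Klrb1c, which encodes NK1.1, was at 1.03, 2.50 and 1.37 CPM in WT mice, 4.63, 3.32 and 2.23 in Max KO mice, 0.532, 1.33 and 0.888 in EuMyc mice and 6.38, 2.47 and 4.21 in EuMyc Max KO mice. Here EuMyc overlapped WT. The log2 fold change of -0.84 (SE 0.485) missed the threshold (edgeR adjusted p = 0.137). The rise in EuMyc Max KO against EuMyc was 2.25 (edgeR adjusted p = 0.000705). Klrd1, which encodes CD94, the partner of the NKG2 receptors, was at 1.15, 1.99 and 2.08 CPM in WT mice, 4.24, 4.86 and 2.11 in Max KO mice, 0.242, 0.0532 and 0.679 in EuMyc mice and 3.35, 3.18 and 3.64 in EuMyc Max KO mice. Klrk1, which encodes the activating receptor NKG2D, was at 3.61, 5.68 and 4.17 CPM in WT mice, 9.15, 10.7 and 7.26 in Max KO mice, 0.725, 1.38 and 2.72 in EuMyc mice and 13.9, 11.1 and 8.99 in EuMyc Max KO mice. Ncr1, which encodes NKp46, was at 1.32, 3.81 and 3.04 CPM in WT mice, 3.44, 3.45 and 3.14 in Max KO mice, 0.242, 0.106 and 0.888 in EuMyc mice and 5.95, 5.21 and 2.44 in EuMyc Max KO mice. For Klrd1 and Klrk1 all Max KO mice lay above all WT mice. The median log2 fold change of these 5 genes in Max KO against WT was 1.01, and none passed the test (edgeR adjusted p 0.0668 for Klrk1 to 0.732 for Ncr1).

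Cytotoxic granule genes and Ccl5 followed the same course, with 4 of 5 lower in EuMyc and 5 of 5 higher in EuMyc Max KO against EuMyc. Gzma, the most abundant granzyme here, was at 2.52, 4.49 and 3.99 CPM in WT mice, 5.03, 9.52 and 3.89 in Max KO mice, 0.290, 0.319 and 1.46 in EuMyc mice and 8.17, 8.39 and 7.43 in EuMyc Max KO mice. Nkg7, a granule membrane protein, was at 1.95, 3.24 and 4.77 CPM in WT mice, 4.74, 6.46 and 4.29 in Max KO mice, 0.193, 0.372 and 0.836 in EuMyc mice and 7.57, 7.18 and 4.31 in EuMyc Max KO mice. Ccl5, a chemokine of memory T and NK cells that macrophages also make, was at 3.21, 5.74 and 5.54 CPM in WT mice, 8.70, 12.7 and 5.71 in Max KO mice, 0.435, 0.266 and 1.25 in EuMyc mice and 14.3, 13.6 and 10.4 in EuMyc Max KO mice. In these 3 genes Max KO replicate 2 and EuMyc Max KO replicates 1 and 2 were the highest libraries. Prf1, which encodes the pore-forming perforin, was at 7.45, 9.89 and 8.76 CPM in WT mice, 13.2, 14.1 and 10.7 in Max KO mice, 1.26, 0.638 and 1.99 in EuMyc mice and 8.87, 5.32 and 8.16 in EuMyc Max KO mice. It had a log2 fold change of -0.76 (SE 0.272) in EuMyc Max KO against Max KO (edgeR adjusted p = 0.0797), with no overlap between the groups, and DESeq2 called it lower. Gzmb, granzyme B, was at 0.287, 0.398 and 0.238 CPM in WT mice, 0.847, 0.703 and 0.457 in Max KO mice, 0.0484, 0.106 and 0.209 in EuMyc mice and 1.95, 1.10 and 1.20 in EuMyc Max KO mice. Its drop in EuMyc rested on 16 reads in WT and 7 in EuMyc and was not called (edgeR adjusted p = 0.0692), except with upper-quartile factors or without EuMyc replicate 3. It rose by 3.49 in EuMyc Max KO against EuMyc (SE 0.507, edgeR adjusted p = 3.82e-05), and by 4.09 without EuMyc replicate 3.

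**Figure D4:**
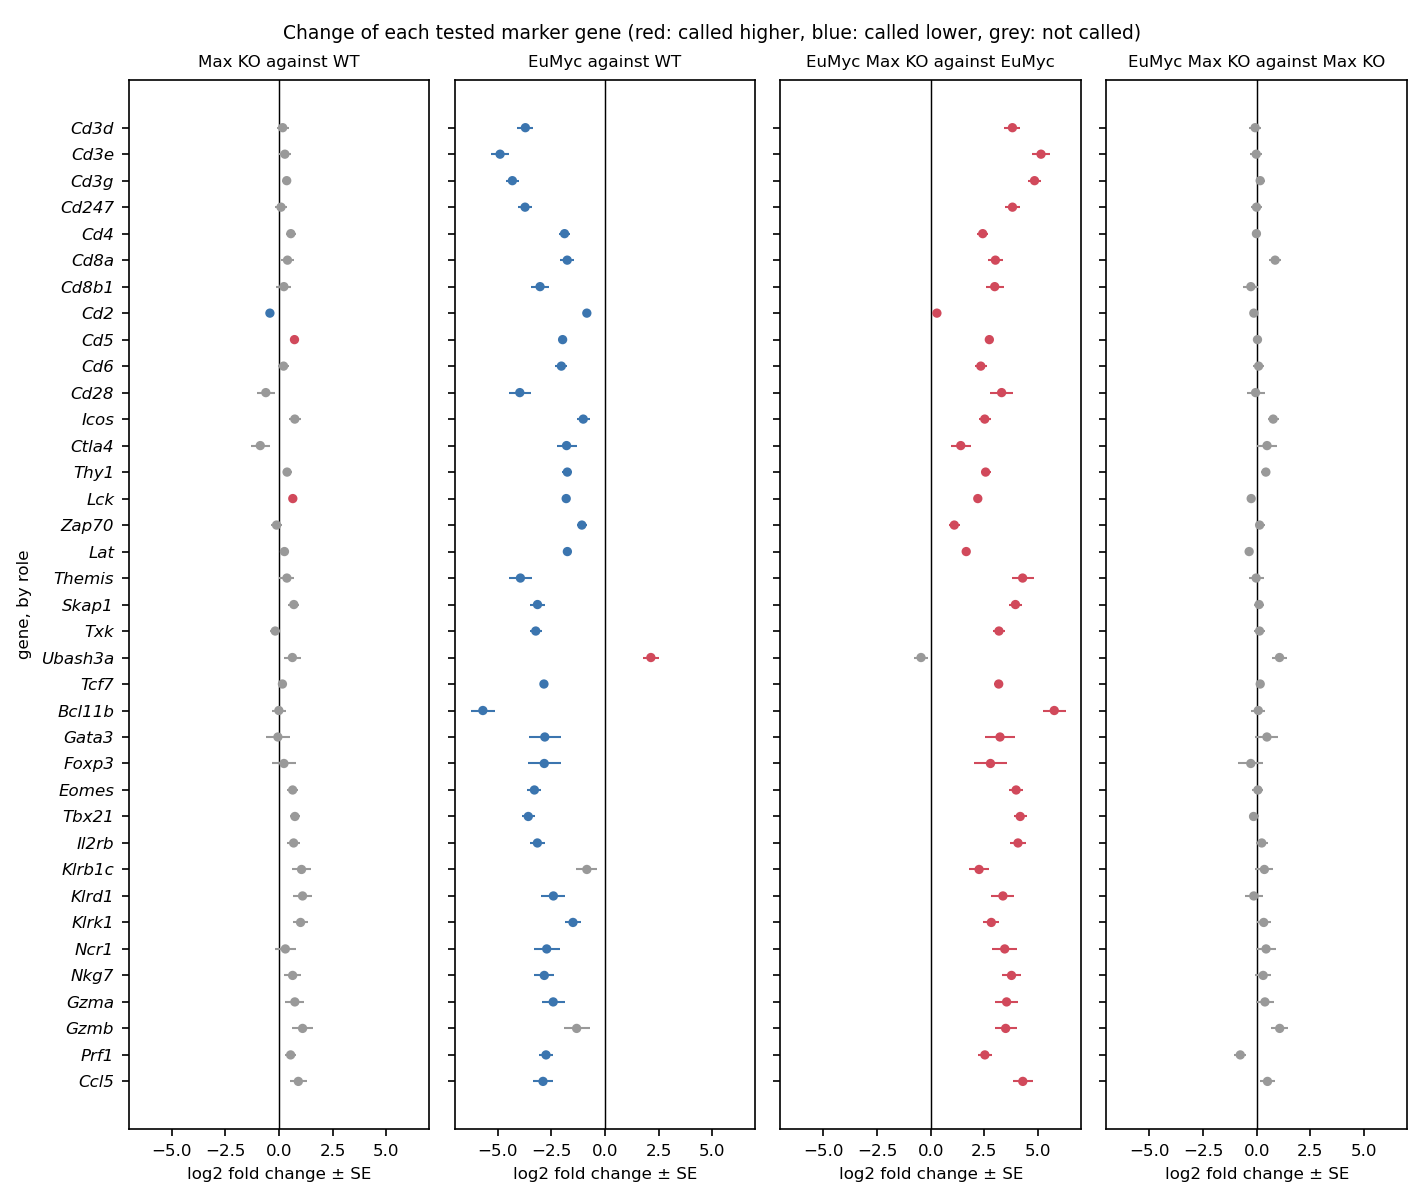
Log2 fold change ± SE of the 37 tested members, by role from top to bottom, in 4 comparisons (edgeR, 12 libraries; red called higher, blue called lower, grey not called). In EuMyc against WT 34 members are blue and Ubash3a is red, in EuMyc Max KO against EuMyc 36 are red, and in EuMyc Max KO against Max KO no member is called.

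In mice without the transgene Max KO differed from WT in few of these genes. Of 37 tested members 2 rose (Cd5 and Lck) and 1 fell (Cd2), or 3 in all, where 15.0% of all tested genes were called, 7.27% higher and 7.74% lower. The median log2 fold change of the members was 0.38, and that of all tested genes was 0.00. A positive log2 fold change was seen in 30 of 37 members, and in 11 of 37 all Max KO mice lay above all WT mice, where this held for 18.0% of all tested genes, and in 1 (Cd2) below, against 20.1%. Within the groups some mice were low for most members: WT replicate 1 was the lowest WT mouse for 28 of 38 members, and Max KO replicate 3 the lowest Max KO mouse for 31 of 38. Without WT replicate 1 the number called was 1, as it was without WT replicate 2 or Max KO replicate 1. In a fit on WT and Max KO alone it was 8, the 5 added being Klrd1, Klrk1, Prf1, Skap1 and Tbx21.

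Between the groups with the Max knockout the transgene moved none of these genes past the threshold. In EuMyc Max KO against Max KO edgeR called 0 of 37 members, where 14.4% of all tested genes were called, 10.7% higher and 3.69% lower, with 6 members at an unadjusted p under 0.05. DESeq2 called 3 (Cd8a and Ubash3a higher, Prf1 lower). The median log2 fold change of the members was 0.11, with 23 above 0 and 14 below. Icos, Thy1, Ubash3a and Gzmb were higher in all 3 EuMyc Max KO mice than in all 3 Max KO mice, and Cd8b1, Lck and Prf1 lower, where 17.2% of all tested genes lay above and 15.1% below. Without EuMyc Max KO replicate 3, which had less Cd8a than the other 2 mice of its group, Cd8a, Lck and Ubash3a were called. The difference between mice with and without the Max knockout changed with the transgene. The interaction was called for 35 of 37 members, all with a positive sign, where 55.7% of all tested genes were called, 27.8% with a positive and 27.9% with a negative sign. Ubash3a (-1.08, edgeR adjusted p = 0.0857) and Klrb1c (1.20, edgeR adjusted p = 0.129) were the members not called. Without 7 of the 12 libraries, each left out in turn, and with a replicate block the call of Foxp3 was lost.

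Other T cell genes took the same course for the most part, and other NK cell genes did so less uniformly. The shares of all tested genes were 34.9% called lower in EuMyc against WT and 37.6% called higher in EuMyc Max KO against EuMyc. Of 41 further T cell genes 34 were counted under their symbol and 32 tested. In EuMyc against WT 29 fell and 3 (Il2ra, Il7r and Lef1) rose, and in EuMyc Max KO against EuMyc 29 rose and 2 (Il2ra and Il7r) fell. The smallest p-values belonged to Bcl2, a survival factor (-2.72 in EuMyc, 2.92 in EuMyc Max KO against EuMyc), Gimap3, a GTPase of lymphocyte survival (-2.93 and 2.58), and Satb1, a chromatin organiser (-2.43 and 2.10). B cells transcribe these genes too, and Il7r and Lef1 are also genes of pro-B cells. In Max KO against WT Cd27, Lcp2 and Bcl2 rose, by 1.18, 0.95 and 0.40 on the log2 scale. Slamf6, Dgka and Gimap3 fell in EuMyc Max KO against Max KO, by 0.37, 0.32 and 0.34 on the log2 scale. The constant genes of the T cell receptor, Trac, Trbc1 and Trbc2, were not analysed here.

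Of 34 further NK cell genes 33 were counted and 24 tested. In EuMyc against WT 14 were lower, 1 was higher and 9 were not called. In EuMyc Max KO against EuMyc 20 were higher and 1 was lower. All EuMyc mice lay below all WT mice in 11 of the 24, against 37.6% of all tested genes. The summed level of the 33, Slamf7 included, was 172 to 222 CPM in WT mice and 250 to 271 in EuMyc mice. It was 232 to 325 in Max KO mice and 240 to 363 in EuMyc Max KO mice. S1pr5, which lets NK cells leave bone marrow and lymph nodes, had log2 fold changes of -4.01 in EuMyc against WT and 4.46 in EuMyc Max KO against EuMyc, and Ctsw, a protease of cytotoxic cells, rose by 4.53 in EuMyc Max KO against EuMyc. Cd7, which is in both lists, fell by 2.99 on the log2 scale in EuMyc. Slamf7, an adhesion receptor that NK cells share with B lineage and plasma cells, was the exception, at 33.9 ± 7.75 CPM in WT mice, 27.2 ± 10.1 in Max KO mice, 194 ± 9.44 in EuMyc mice and 37.3 ± 6.68 in EuMyc Max KO mice (SD, n = 3). Fcgr3, an Fc receptor of NK and myeloid cells, was the 1 gene of this list called in Max KO against WT (0.85, edgeR adjusted p = 0.0105).

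Most monocyte, macrophage and dendritic cell markers moved in the same directions as the T and NK genes. Most neutrophil and erythroid markers did not fall in EuMyc. Among all tested genes 34.9% were called lower in EuMyc against WT and 37.6% higher in EuMyc Max KO against EuMyc. Of 18 monocyte and macrophage markers 14 fell and 1 rose in EuMyc against WT, and 17 rose and 1 fell in EuMyc Max KO against EuMyc. Their summed level was 2455 to 3098 CPM in WT mice, 3850.2 to 5613 in Max KO mice, 1373 to 1675 in EuMyc mice and 4074 to 8191 in EuMyc Max KO mice. None of the 18 was at 0 in any library. Of 14 dendritic cell markers, Siglech of B220+ plasmacytoid dendritic cells among them, 12 fell and 1 rose in EuMyc and 12 rose and 1 fell in EuMyc Max KO against EuMyc. The sum was 314 to 448 CPM in WT mice, 433 to 652 in Max KO mice, 141 to 153 in EuMyc mice and 329 to 401 in EuMyc Max KO mice. Klk1 was at 0 in EuMyc replicate 1. WT over EuMyc was 1.84-fold for the macrophage sum and 2.63-fold for the dendritic cell sum, against 15.2-fold for the T cell sum and 5.24-fold for the NK cell sum. It was 1.73-fold for the 15 B cell markers, of which 11 fell and 2 rose in EuMyc against WT. A sum is weighted towards the most abundant genes of its list, so these folds are not like measures. The median log2 fold change in EuMyc against WT was -0.99 for macrophage, -2.30 for dendritic cell and -0.73 for B cell markers. For the defining T cell and NK cell markers the medians were -4.12 and -2.41.

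Neutrophil markers, 8 of 10 tested, gave 2 lower and 0 higher in EuMyc and 8 higher in EuMyc Max KO against EuMyc. Their summed level was 13.2 to 22.6 CPM in WT mice, 27.8 to 167 in Max KO mice, 13.6 to 18.1 in EuMyc mice and 36.8 to 281 in EuMyc Max KO mice. Elane was at 0 in WT replicates 2 and 3 and Max KO replicate 1, and Retnlg in EuMyc replicate 2. Max KO replicate 2 and EuMyc Max KO replicates 1 and 2, the libraries highest in neutrophil markers, were also the highest in Gzma, Nkg7 and Ccl5. They were the highest in Cd8a, Eomes, Il2rb and Klrk1 too, and in the NK cell and macrophage sums. The same did not hold for Prf1, Gzmb or the T cell sum, and a link to neutrophil markers was not tested. Of 9 tested erythroid markers 5 rose and 0 fell in EuMyc against WT, 8 rose and 0 fell in EuMyc Max KO against EuMyc, and 8 rose in EuMyc Max KO against Max KO. The shares of all tested genes called higher were, in that order, 36.7%, 37.6% and 10.7%. The summed level of the erythroid markers was 185 to 455 CPM in WT mice, 252 to 563 in Max KO mice, 771 to 924 in EuMyc mice and 1311 to 6849 in EuMyc Max KO mice. All 6 tested defining T cell markers and 4 of 5 defining NK cell markers fell in EuMyc, where 34.9% of all tested genes were called lower. The part of the other cells in the levels of members that they also transcribe, such as Cd4, Cd8a and Ccl5, was not tested.

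**Figure D5:**
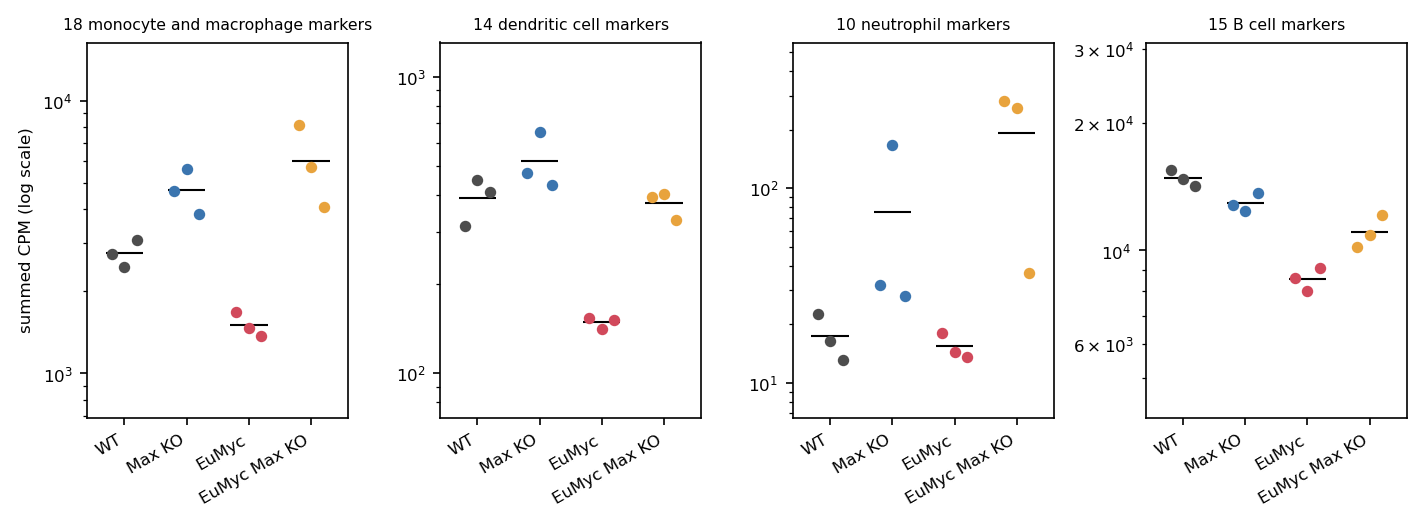
Summed CPM (log scales that differ between panels) of 18 monocyte and macrophage, 14 dendritic cell, 10 neutrophil and 15 B cell markers by genotype group, with each point a mouse and each line the mean of 3. The macrophage and dendritic cell sums are lowest in the 3 EuMyc mice, and the neutrophil sum is spread widely among Max KO and EuMyc Max KO mice.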

How the data were processed

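RNA from B220+ splenocytes of 12 mice was sequenced on Illumina-type libraries, per the labels' protocols. The tools named were bcl2fastq 1.8.4, TopHat2 2.1.0 and HTSeq 0.6.1, with build mm10, per the submitters' processing notes. Each deposited file lists raw counts of reads by gene symbol, not normalized by the authors. Annotation, strandedness and read length were not given in the sources used here, so reads shared with overlapping genes are uncertain. In each file 5 summary rows name no gene. They held 34.9% to 45.4% of the counts and stayed out of all steps.

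The genotype label set the group, and the title gave each mouse its number. Every library is a separate mouse, per the series' design text, and no pair of libraries of a group agreed within sampling noise (chi-square per degree of freedom 7.46 to 65.6). Counts were analysed with R 4.3.3 and edgeR 4.0.16: filterByExpr, TMM scaling and 1 robust quasi-likelihood fit over the 12 libraries (8 residual degrees of freedom), with 5 contrasts, each adjusted over 12878 genes by Benjamini-Hochberg and called at an adjusted p under 0.05. The SE is the log2 fold change divided by the square root of the F statistic. DESeq2 1.42.0, other scalings, no filter, a replicate block, fits on single pairs of groups and leaving out each library were alternatives. Coordinates and exon lengths are those of GENCODE vM21 on mm10. The fit was also run on simulated data with known changes in a small share of genes, unlike the large share called here with the transgene. The outcome is not reported here and no conclusion is drawn from it. The members, the gene lists and the tests were chosen with earlier results of these data known. All 38 members are named, with the value of each library for those called in any contrast and for the defining markers. From the further lists up to 3 called genes per contrast with the smallest p were named, and other genes named were chosen after their values were seen.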

Additional observations from a re-analysis of the deposited data

Results flagged for a closer look

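The difference between mice with and without the Max knockout changed with the transgene for 35 members. The call is by the interaction term of the edgeR fit (adjusted p under 0.05 over 12878 genes). The values are the log2 fold change of EuMyc Max KO against EuMyc minus that of Max KO against WT. They contain the same EuMyc libraries as EuMyc against WT and EuMyc Max KO against EuMyc, so they are not independent of those comparisons. In the receptor complex it was 3.63 for Cd3d, 4.86 for Cd3e, 4.47 for Cd3g and 3.71 for Cd247. All 4 chains were thus more than 3 log2 units further up with the Max knockout in transgenic than in other mice.

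Among coreceptors and costimulatory receptors the difference ranged from 0.71 for Cd2 to 3.91 for Cd28. It was 1.87 for Cd4, 2.61 for Cd8a, 2.75 for Cd8b1, 2.005 for Cd5, 2.12 for Cd6, 1.78 for Icos, 2.27 for Ctla4 and 2.18 for Thy1. For the signalling genes it was 1.55 for Lck, 1.21 for Zap70, 1.39 for Lat, 3.91 for Themis, 3.25 for Skap1 and 3.35 for Txk.

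The transcription factors had 3.00 for Tcf7, 5.76 for Bcl11b, 3.27 for Gata3, 2.55 for Foxp3, 3.34 for Eomes and 3.42 for Tbx21, with Foxp3 the closest to the threshold. Of the NK and cytotoxic genes Il2rb had 3.38, Klrd1 2.26, Klrk1 1.81, Ncr1 3.15, Nkg7 3.12, Gzma 2.79, Gzmb 2.39, Prf1 1.98 and Ccl5 3.38.

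Without EuMyc replicate 3 the value was larger by over 1.5 times on the linear scale for 13 of these members, to 5.99 for Cd3e, 3.71 for Cd8b1, 5.46 for Cd28, 6.60 for Bcl11b, 4.79 for Gata3, 3.47 for Foxp3, 3.33 for Klrd1, 2.42 for Klrk1, 4.33 for Ncr1, 3.84 for Nkg7, 3.95 for Gzma, 2.99 for Gzmb and 4.25 for Ccl5. Without EuMyc replicate 1 it was 2.69 for Gata3 and 1.96 for Foxp3.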

How the results depend on the processing

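With the transgene, the 35 members called in EuMyc against WT, the 36 in the comparison of EuMyc Max KO with EuMyc and the 35 in the interaction became 33 to 37 over all alternatives run, leaving out single libraries included, and no called member changed direction. Foxp3 and Gata3 did not pass the filter in a fit on EuMyc and WT alone, and no such fit exists for the interaction. In Max KO against WT the count of 3 became 5 with DESeq2 and 8 in a fit on WT and Max KO alone, and ran from 1 to 4 over the 6 fits that left out a library. In EuMyc Max KO against Max KO the count of 0 became 1 with upper-quartile factors (Lck), 3 with DESeq2, 1 in a fit on those groups alone (Lck), 1 with the replicate block (Ubash3a), and 0 to 3 over the 6 fits that left out a library. The cause of these shifts was not tested, apart from fewer samples where libraries were left out. Of 18 correlations between the deviations of same-numbered mice from their group means 4 were over 0.1, and a library correlated best with its own number in 13 of 36 checks. Between WT and Max KO the 3 same-numbered pairs were at 0.179, 0.344 and 0.0951, each the best match of that WT mouse, but not all over 0.1. The replicate block otherwise kept the counts at 3, 35, 36 and 35, exchanging Foxp3 for Ubash3a in the interaction. The median of all genes moved by over 0.1 in EuMyc against WT with upper-quartile factors (from 0.01 to -0.12) and library totals (to -0.09), and in EuMyc Max KO against EuMyc with library totals (from 0.03 to 0.15). The members' medians there were -2.87, -2.85 and 3.30. Over all genes the calls in Max KO against WT split into 936 higher and 997 lower, or 1130 and 719 with library totals, and in EuMyc Max KO against Max KO into 1378 and 475, or 1215 and 695 with upper-quartile factors. Depth limits the EuMyc values of Bcl11b, Themis, Gata3, Foxp3 and Trat1, which rest on 2 to 6 reads over 3 mice. It also limits those of Cd3e and Gzmb, with 7 reads each, and Cd3g, with 9.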
